A study of Mus musculus with 6 samples.

Results

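Genes of the G2 and M phases of the cell cycle were described as a group of 41 genes, listed by symbol: the kinases, cyclins and phosphatases of mitotic entry, the chromosomal passenger complex, the spindle checkpoint, activators of the anaphase-promoting complex, kinetochore and spindle proteins, cytokinesis factors, and condensin with topoisomerase. They were chosen from 22099 genes in the table, and all 41 had at least 1 RPKM in at least 2 of the 6 libraries, which was the filter for the 11345 genes tested. RPKM, the deposited unit, divides the reads of a transcript by its length and by the total reads of the library. Polyadenylated RNA was sequenced from cultures of whole C57BL/6 mouse marrow, into which a retrovirus had brought the BCR-ABL oncogene (the p185 form) and, behind an internal ribosome entry site, YFP at day 0. The cells were taken at day 14 of culture and are labelled transformed pro-B acute lymphoblastic leukaemia (proB-ALL) cells. The 3 groups were wt, Ikaros_ZnF1-/- and Ikaros_ZnF4-/- (below, ZnF1-/- and ZnF4-/-), with 2 biological replicates each. All groups carry BCR-ABL, so there was no untransformed control. The cultures grew from whole marrow, and the labels mention neither a sort of the transduced cells nor a cloning step.

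Entry into mitosis is driven by the kinase CDK1 bound to cyclin B, which CDC25 phosphatases switch on. The spindle checkpoint then holds back the anaphase-promoting complex (APC/C) until every chromosome is attached to the spindle, after which cyclin B is destroyed, the sister chromatids part and the cell divides. Transcripts of these genes accumulate late in the cell cycle, so their level in a bulk library depends on how many cells are dividing. Ikaros is a zinc finger transcription factor of blood cells and a tumour suppressor in B cell leukaemia. The comparisons address how loss of each of these zinc fingers alters expression in BCR-ABL-transformed cells.

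Promoters of late cell cycle genes often hold a cell cycle genes homology region (CHR) and CCAAT boxes, which are read by the MuvB complexes and by NF-Y. RefSeq promoter windows (GRCm38.p6, 250 bases before to 50 after the start) were matched by symbol for 33 of the 41 genes, with 35 windows in all. CHR letters (TTTGAA or TTCGAA, both strands) were present in 28 of these windows (80%), against 13.9% of the 10216 windows of genes tested and 19.2% of all 32851 windows. CCAAT letters (both strands) were present in 30 windows (85.7%), against 37.9% and 37.4%. Both stood together in 26 windows (74.3%), against 5.67% and 7.52%. Matches of the motifs may overlap. A match is a match of letters and not a measured binding site. The 120 bases before the start are printed 5′ to 3′ for 6 genes of 5 roles, to show what this shared arrangement looks like. The stretches are chr10:69352913-69353032 (minus strand) for Cdk1, chr13:100786487-100786606 (minus strand) for Ccnb1, chr4:118437344-118437463 (minus strand) for Cdc20, chr19:37376262-37376381 (plus strand) for Kif11, chr7:80294356-80294475 (plus strand) for Prc1 and chr11:99024190-99024309 (minus strand) for Top2a. Capitals mark CHR and CCAAT letters on either strand. Ccnb1 is shown because its window has CCAAT letters but neither TTTGAA nor TTCGAA on either strand. Other forms of the CHR were not searched.
Cdk1: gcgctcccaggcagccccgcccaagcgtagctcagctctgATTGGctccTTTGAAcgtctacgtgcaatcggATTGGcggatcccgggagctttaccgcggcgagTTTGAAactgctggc
Ccnb1: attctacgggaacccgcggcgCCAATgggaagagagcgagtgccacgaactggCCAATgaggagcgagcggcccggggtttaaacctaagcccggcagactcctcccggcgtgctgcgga
Cdc20: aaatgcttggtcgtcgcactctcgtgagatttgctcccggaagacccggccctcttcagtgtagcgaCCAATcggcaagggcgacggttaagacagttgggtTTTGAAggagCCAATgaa
Kif11: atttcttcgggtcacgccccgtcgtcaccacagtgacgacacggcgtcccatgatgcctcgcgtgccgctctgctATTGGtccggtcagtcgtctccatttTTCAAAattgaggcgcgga
Prc1: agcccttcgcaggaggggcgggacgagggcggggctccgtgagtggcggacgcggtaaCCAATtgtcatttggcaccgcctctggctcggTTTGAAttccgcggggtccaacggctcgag
Top2a: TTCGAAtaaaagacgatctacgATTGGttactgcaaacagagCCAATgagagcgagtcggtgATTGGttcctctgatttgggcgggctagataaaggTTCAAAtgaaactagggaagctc

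The summed RPKM of a library was 287007 to 345766, with 10582 to 11119 genes reaching 1 RPKM. The depth of the libraries is unknown, so no counting interval is given. All 8 B lineage markers were present. The 7 T and NK cell markers summed to 0.2 to 2.3 RPKM per library. Of these 7, only Cd4 reached 1 RPKM in 2 libraries, at 1.7 and 2 RPKM in ZnF1-/- against at most 0.1 RPKM in the others. Markers of other marrow cells varied from library to library. Granulocyte markers summed to 533 RPKM in wt replicate 1 and 1636 RPKM in ZnF1-/- replicate 2, against 0.5 to 53.3 RPKM in the other 4 libraries. Macrophage markers (10 genes, all present) summed to 959 and 1090 RPKM in ZnF1-/-, against 352 to 426 RPKM in the other libraries. Stromal markers (8 genes, Lum listed at 0) summed to 220 and 123 RPKM in ZnF1-/-, against 50.3 to 63.6 RPKM in the others. Much of these sums came from Fn1 alone, at 76.6 and 69.5 RPKM in ZnF1-/-, 16.2 and 30.4 in wt, and 35.3 and 48.2 in ZnF4-/-. Wherever 2 values are given for a group below, they are replicate 1 and then replicate 2.

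The mitotic genes were strongly expressed in these cells. Their median level was 61.3 and 61.8 RPKM for wt, 53.7 and 53.2 for ZnF1-/-, and 68.7 and 67.2 for ZnF4-/-, while the median of all genes tested was between 11.1 and 12.5 RPKM. Thus ZnF1-/- libraries were lowest and ZnF4-/- libraries highest. Averaged over the 6 libraries, Top2a (DNA topoisomerase II alpha, which untangles sister chromatids) stood highest at 252 RPKM, followed by Ccna2 (cyclin A2) at 198 RPKM and Ube2c, a ubiquitin-conjugating enzyme of the APC/C, at 194 RPKM. Ccnb1 (cyclin B1) stood lowest at 9.1 RPKM. These ranks varied between libraries: Ube2c exceeded Top2a in replicate 1 of wt and of ZnF4-/-, and Cks2 was lowest in replicate 2 of every group. Stretches of 36 bases shared with other genes' transcripts (GENCODE M21) made up 45.8% of Ccnb1, 32.2% of Kif20a, 31.2% of Cks2, 29.6% of Prc1, 22.4% of both Cdc20 and Ube2c, 19.2% of Ncapg, 16.7% of Kif4, 16.5% of Plk1 and 16.3% of Ccna2, against at most 10.3% of each other gene, so the levels of these genes are uncertain. Within replicate 1, 35 of the 41 genes were ordered ZnF1-/- below wt below ZnF4-/-, and within replicate 2, 33 were. The order held in both for 30 genes (73.2%), against 15.4% of all genes tested.

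**Figure D1:**
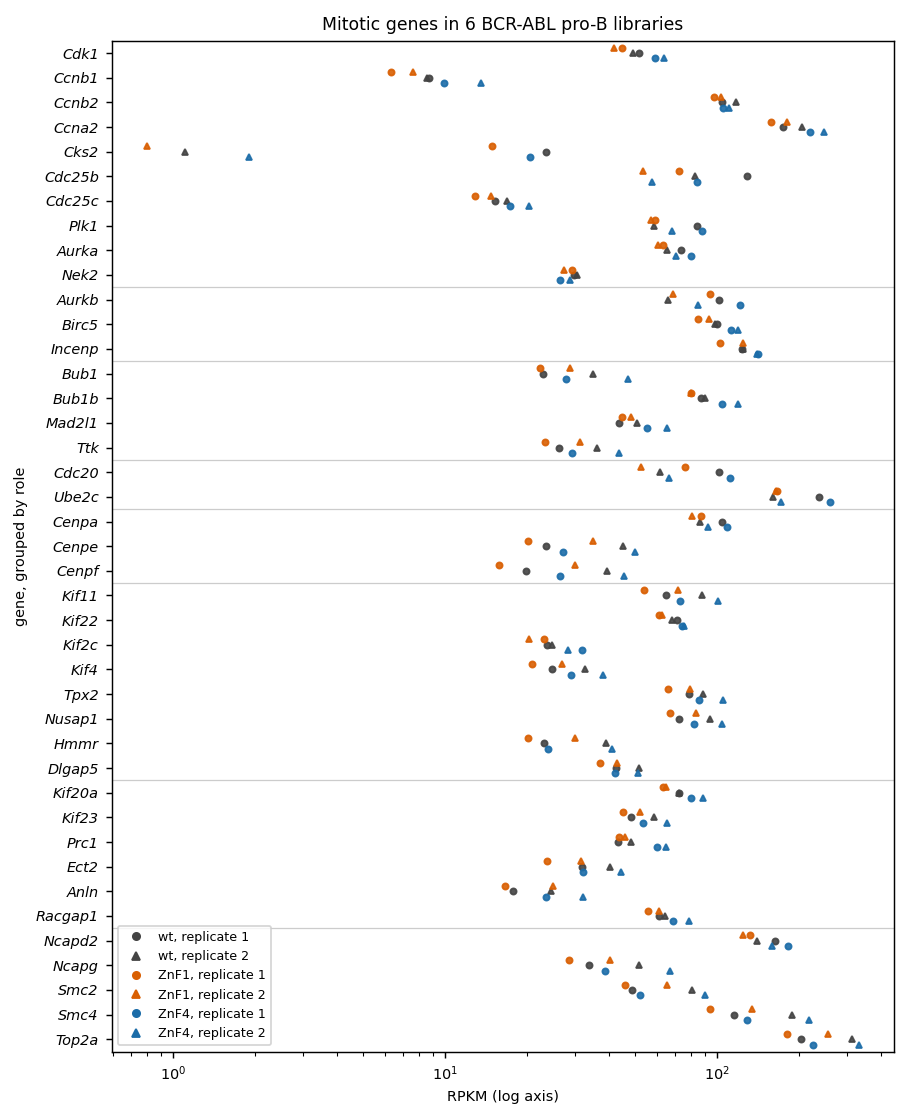
RPKM (log axis) of the 41 mitotic genes, grouped by role, with 1 point for each of the 6 libraries, coloured by group and shaped by replicate. The ZnF4-/- points lie to the right of ZnF1-/- points of the same replicate for 40 genes, and Cks2 shows a wide gap between replicates in every group.

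The replicate numbers themselves separated these genes. In all 3 groups, 25 of the 41 genes were higher in replicate 2 and 9 were lower. By group, 28 (wt), 29 (ZnF1-/-) and 30 (ZnF4-/-) of the 41 were higher in replicate 2. Most of all 11345 genes tested went the other way: 4556, 4167 and 4933 were higher, and 6510, 6942 and 6113 were lower. The difference followed transcript length: Spearman's rho between length and the log2 difference of replicate 2 from replicate 1 across the 41 genes was 0.71 (wt), 0.69 (ZnF1-/-) and 0.72 (ZnF4-/-). Across all 11345 genes it was 0.27, 0.33 and 0.18. The mitotic genes also differed from other genes of like length. At 4000 to 6000 bases, the length bin with most of them (11 genes), their median log2 difference was 0.42 (wt), 0.40 (ZnF1-/-) and 0.45 (ZnF4-/-). That of all genes tested in this bin was 0.00 in each group. These are descriptions across genes of shared libraries, not of independent samples. The 2 longest transcripts, the kinetochore proteins Cenpe and Cenpf, were higher in replicate 2 by a median of 0.93 (wt), 0.83 (ZnF1-/-) and 0.81 (ZnF4-/-) on the log2 scale. The shortest, Cks2, a small CDK-binding subunit of 697 bases, stood at 23.4 and 1.1 RPKM for wt, at 14.9 and 0.8 RPKM for ZnF1-/-, and at 20.5 and 1.9 RPKM for ZnF4-/-. Differences between groups showed weaker relations to length, with rho of -0.19 (ZnF1-/- less wt), 0.10 (ZnF4-/- less wt) and 0.23 (ZnF4-/- less ZnF1-/-). Without Cks2 these were -0.28, 0.08 and 0.30, and over all genes tested 0.02, -0.07 and -0.06. What the replicate number stands for is not given in the labels, and its source was not tested. The main fit left the number out, and it put none of the 41 genes past an adjusted p threshold of 0.05 in any comparison. Because the libraries of a number deviate together, counts of calls are given without the number and with it as a block, and single genes mainly with it. An adjusted p given only with the block is therefore not from the main fit.

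**Figure D2:**
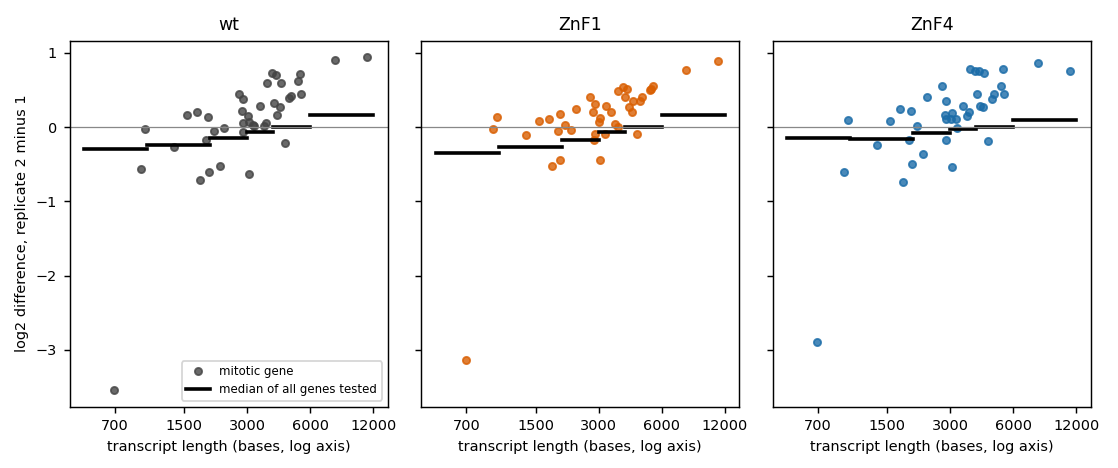
Log2 difference of replicate 2 from replicate 1 against transcript length (bases, log axis) in each group, with the 41 mitotic genes as points over the medians of all genes tested in bins of length. The points rise with length in each panel, with Cks2 at the lower left and Cenpf at the upper right.

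The largest contrast among the mitotic genes was between the 2 mutants. Of the 41 genes, 40 were higher in ZnF4-/- than in ZnF1-/-, with a median difference of 0.40 on the log2(RPKM + 1) scale (1.32-fold), against a median of 0.04 over all genes tested, of which 54.7% were higher. All 40 were higher within both replicate numbers, against 41.2% of all genes. For 24 genes both ZnF4-/- libraries lay above both ZnF1-/- libraries, against 21.7% of all genes. Without the block, limma called none of the 41 at an adjusted p threshold of 0.05 (adjusted p 0.13 to 0.95), and 5.37% of all genes were called. Unadjusted p was under 0.05 for 9 (22%), close to the 19.3% of all genes. With the replicate block, limma called 32 of the 41 higher and none lower, against 15.9% of all genes called higher. The differences of these 32 ran from 0.27 to 0.67 (1.21-fold to 1.68-fold), with adjusted p from 0.005 to 0.048 (limma with the block). The count of calls depended on single libraries. With the block it fell in each of the 6 fits that left out 1 library, and most without either ZnF4-/- library. The count over all genes fell in each as well. Each of these fits kept 1 residual degree of freedom, and the median difference of the 41 genes in them was 0.37 to 0.41. In bulk RNA, fewer dividing cells and less RNA of these genes per cell cannot be told apart. The mixture of cells also differed between the mutants. Macrophage markers summed to 959 and 1090 RPKM in ZnF1-/- against 393 and 426 RPKM in ZnF4-/-. Stromal markers summed to 220 and 123 RPKM against 61.4 and 63.6 RPKM, and B lineage markers to 3085 and 2630 RPKM against 3232 and 2134 RPKM. The part of other cells in this contrast was not tested.

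Among the genes of mitotic entry, 5 of 10 were called higher in ZnF4-/- than in ZnF1-/- with the block, against 15.9% of all genes. Cdk1, the mitotic kinase itself, stood at 51.4 and 49.1 RPKM for wt, 44.6 and 41.9 for ZnF1-/-, and 59.2 and 63.8 for ZnF4-/-. The 3 groups did not overlap. Its difference between the mutants was 0.50 (SE 0.14, adjusted p 0.13 in limma without the block, 0.011 with it). Its partner Ccnb1 stood at 8.7 and 8.6 RPKM for wt, 6.3 and 7.6 for ZnF1-/-, and 9.9 and 13.5 for ZnF4-/-, again with no overlap. That difference between the mutants, 0.67 (SE 0.20, limma adjusted p 0.15 without and 0.014 with the block), was the highest of the 41 genes. Ccna2 stood at 175.3 and 205 RPKM for wt, 158.1 and 181.4 for ZnF1-/-, and 220.5 and 248.1 for ZnF4-/-. Both ZnF4-/- libraries exceeded all 4 others, and the call with the block had an adjusted p of 0.0096 (limma). Cdc25c, a phosphatase that activates CDK1, stood at 15.3 and 16.9 RPKM for wt, 12.9 and 14.7 for ZnF1-/-, and 17.3 and 20.3 for ZnF4-/-. Aurka, the kinase that matures centrosomes and activates PLK1, stood at 73.8 and 65.7 RPKM for wt, 63 and 60.7 for ZnF1-/-, and 80 and 70.9 for ZnF4-/-. The mutants did not overlap for either gene, and both were called with the block (limma adjusted p 0.012 for Cdc25c and 0.037 for Aurka).

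The other 5 genes of mitotic entry were not called between the mutants. Cks2, with values given above, differed by 0.56 and missed the threshold narrowly (limma adjusted p 0.052 with the block). Cyclin B2 (Ccnb2), unlike cyclin B1, varied little: it stood at 103.9 and 117.2 RPKM for wt, 97.7 and 103 for ZnF1-/-, and 105.1 and 110.9 for ZnF4-/-. Its difference between the mutants was 0.10 (limma adjusted p 0.3 with the block). Nek2, a kinase that separates centrosomes, was the 1 gene of the 41 that was lower in ZnF4-/- than in ZnF1-/-. It stood at 29.8 and 30.5 RPKM for wt, 29.2 and 27.4 for ZnF1-/-, and 26.5 and 28.7 for ZnF4-/-. The mutants overlapped, the difference was -0.04 (limma adjusted p 0.75 with the block), and it became 0.03 when the trend on transcript length was removed. Plk1, a kinase that acts from entry to cytokinesis, stood at 84.4 and 58.7 RPKM for wt, 59 and 57.3 for ZnF1-/-, and 87.8 and 68.3 for ZnF4-/-. Its replicate 1 values were spread more widely than those of replicate 2, and the limma adjusted p with the block was 0.06.

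Cdc25b, the phosphatase that acts first on CDK1 at the centrosome, differed more between each mutant and wt than between the mutants. It stood at 129.3 and 83.2 RPKM for wt, 72.5 and 53.2 for ZnF1-/-, and 84 and 57.6 for ZnF4-/-. Within each replicate wt was highest, as it also was for Nek2 and the spindle gene Dlgap5. With the block, limma called it lower in ZnF1-/- than in wt (-0.73, adjusted p 0.0099; 0.52 without the block) and lower in ZnF4-/- than in wt (-0.57, adjusted p 0.011; 0.69 without the block). These comparisons share the wt libraries, and both calls were lost when either wt library was left out. The ZnF4-/- call was also lost without either ZnF4-/- library, and the ZnF1-/- call without ZnF1-/- replicate 1. The 6 blocked fits that left out 1 library each kept 1 residual degree of freedom. Their differences were -0.80 to -0.66 (ZnF1-/-) and -0.64 to -0.50 (ZnF4-/-). Without the block the replicate difference enters, and the size varied more. Leaving out wt replicate 1 then gave -0.42 (ZnF1-/-) and -0.25 (ZnF4-/-), and leaving out wt replicate 2 gave larger falls in both. Without both granulocyte-rich libraries, wt replicate 1 and ZnF1-/- replicate 2, the differences were -0.20 (ZnF1-/-) and -0.25 (ZnF4-/-). The difference between the mutants was 0.16 (limma adjusted p 0.17 with the block).

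The chromosomal passenger complex corrects faulty attachments of chromosomes to the spindle. Its kinase Aurkb stood at 101.7 and 66.1 RPKM for wt, 94.2 and 69.1 for ZnF1-/-, and 121.4 and 85.3 for ZnF4-/-. Within each replicate ZnF4-/- was highest, although the groups overlapped across replicates. Birc5 (survivin) stood at 99.7 and 98.5 RPKM for wt, 84.9 and 93.4 for ZnF1-/-, and 112.5 and 119.5 for ZnF4-/-, with no overlap. Both were called higher in ZnF4-/- than in ZnF1-/- with the block (limma adjusted p 0.028 and 0.019). Incenp, the scaffold of the complex, was higher by 0.31 and was not called (limma adjusted p 0.062 with the block).

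All 4 genes of the spindle checkpoint were called higher in ZnF4-/- than in ZnF1-/- with the block, against 15.9% of all genes. Their limma adjusted p with the block ran from 0.013 to 0.024. Bub1b (BUBR1, part of the complex that inhibits the APC/C) stood at 87 and 89.9 RPKM for wt, 80 and 80.1 for ZnF1-/-, and 104.2 and 119.7 for ZnF4-/-. The 3 groups did not overlap. Mad2l1 (MAD2, which captures the APC/C activator CDC20) stood at 43.6 and 50.6 RPKM for wt, 44.5 and 48.1 for ZnF1-/-, and 55 and 65.2 for ZnF4-/-. Here wt and ZnF1-/- lay together and ZnF4-/- lay above both. The kinases Bub1 and Ttk (MPS1), which load the checkpoint onto kinetochores, were higher by 0.50 and 0.40 between the mutants. Their groups overlapped, and replicate 2 exceeded replicate 1 in each: Ttk stood at 26.3 and 36.1 RPKM for wt, 23.2 and 31.2 for ZnF1-/-, and 29.3 and 43.5 for ZnF4-/-, while Bub1 stood at 22.8 and 35, 22.3 and 28.7, and 27.8 and 46.9 RPKM in the same order.

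Cdc20, the target of the checkpoint and the activator of the APC/C, stood at 101.5 and 61.8 RPKM for wt, 76.5 and 52.5 for ZnF1-/-, and 111.9 and 66.7 for ZnF4-/-. It was called higher in ZnF4-/- than in ZnF1-/- with the block (0.44, limma adjusted p 0.016). Ube2c stood at 238 and 160.9 RPKM for wt, 166.8 and 164.6 for ZnF1-/-, and 260.1 and 171.7 for ZnF4-/-. Its difference between the mutants was 0.64 within replicate 1 and 0.06 within replicate 2, and it was not called (limma adjusted p 0.15 with the block).

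At the centromere, Cenpf stood at 19.9 and 39.2 RPKM for wt, 15.7 and 30 for ZnF1-/-, and 26.4 and 45.5 for ZnF4-/-. The replicates differed more than the groups, but within each replicate the order was the same. Its difference of 0.65 between the mutants had the lowest adjusted p of the 41 genes (0.005, limma with the block; 0.58 without it). Cenpe, the kinesin that moves chromosomes to the spindle equator, differed by 0.45 (limma adjusted p 0.011 with the block). Cenpa, the histone that marks the centromere, stood at 104.3 and 86.2 RPKM for wt, 87.3 and 80.7 for ZnF1-/-, and 109.2 and 92.4 for ZnF4-/-. It just missed the threshold (0.26, limma adjusted p 0.055 with the block).

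Of the 8 spindle genes, 7 were called higher in ZnF4-/- than in ZnF1-/- with the block, against 15.9% of all genes. Kif11 (the kinesin Eg5, which pushes the spindle poles apart) stood at 65.1 and 87.7 RPKM for wt, 53.7 and 71.9 for ZnF1-/-, and 73.1 and 100.5 for ZnF4-/-. Both ZnF4-/- values exceeded both ZnF1-/- values, and the difference was 0.46 (limma adjusted p 0.0084 with the block). The chromokinesin Kif4 (0.47, limma adjusted p 0.0076) and Kif2c, a kinesin that takes microtubules apart (0.45, limma adjusted p 0.018), differed by similar amounts. Tpx2, an activator of Aurora A, and the microtubule-binding proteins Nusap1 and Hmmr differed by 0.39, 0.30 and 0.34. Dlgap5, a protein that stabilises spindle fibres, was the spindle gene that was not called (0.21, limma adjusted p 0.063 with the block).

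All 6 cytokinesis genes were called higher in ZnF4-/- than in ZnF1-/- with the block, against 15.9% of all genes. Prc1, which bundles the microtubules of the central spindle, stood at 43.3 and 48.1 RPKM for wt, 43.4 and 45.7 for ZnF1-/-, and 60 and 64.8 for ZnF4-/-. The ZnF4-/- stood apart from 4 libraries that lay close together. Its difference was 0.48 from ZnF1-/- (limma adjusted p 0.0078 with the block) and 0.44 from wt (SE 0.15, limma adjusted p 0.3 without and 0.015 with the block). Kif20a, a kinesin of the central spindle, stood at 72.2 and 72.6 RPKM for wt, 63.4 and 65.1 for ZnF1-/-, and 80 and 89.1 for ZnF4-/-, with no overlap. Ect2, which activates RhoA at the cleavage furrow, stood at 31.9 and 40.2 RPKM for wt, 23.7 and 31.5 for ZnF1-/-, and 32.2 and 44.4 for ZnF4-/-. In contrast to Prc1, it was lower in ZnF1-/- while wt and ZnF4-/- overlapped. Anln, an actin-binding protein of the contractile ring, stood at 17.7 and 24.4 RPKM for wt, 16.6 and 25 for ZnF1-/-, and 23.4 and 32.2 for ZnF4-/-. Like Prc1, it was near wt in ZnF1-/-. Kif23 and Racgap1, which together form centralspindlin, differed between the mutants by 0.28 and 0.33.

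The 5 genes of condensin and topoisomerase were likewise called higher in ZnF4-/- than in ZnF1-/- with the block, against 15.9% of all genes. Top2a stood at 203.6 and 312.8 RPKM for wt, 181.4 and 256.8 for ZnF1-/-, and 224.4 and 332.2 for ZnF4-/-. The groups overlapped across replicates and kept 1 order within them (0.34, limma adjusted p 0.026 with the block). Among the subunits of condensin, which compacts chromosomes, Smc4 and Ncapg differed most between the mutants, each by 0.57. Ncapg stood at 33.8 and 51.6 RPKM for wt, 28.5 and 40.5 for ZnF1-/-, and 38.8 and 67.2 for ZnF4-/-. Smc2 stood at 48.7 and 81 RPKM for wt, 45.7 and 65.3 for ZnF1-/-, and 52.2 and 90.5 for ZnF4-/- (0.33, limma adjusted p 0.048 with the block). Ncapd2 was the condensin gene without overlap between the mutants (0.41, limma adjusted p 0.016 with the block).

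**Figure D3:**
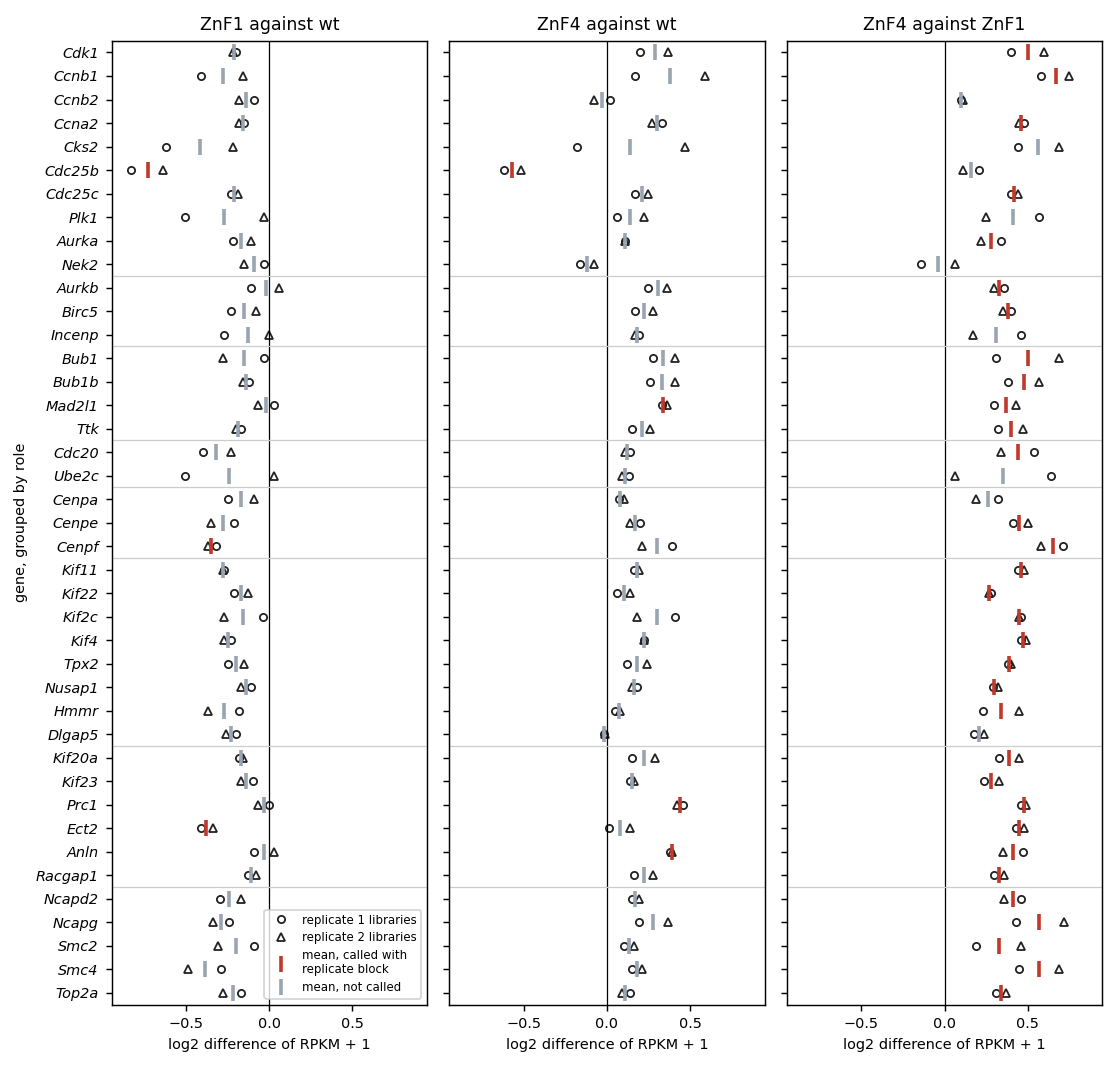
Log2 differences of RPKM + 1 for the 41 mitotic genes in the 3 comparisons, with the fitted difference and the differences within replicates 1 and 2. In ZnF1-/- against wt all 41 fitted differences are below 0, and in ZnF4-/- against ZnF1-/- 40 are above 0.

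In ZnF1-/- all 41 genes had fitted values below wt, from -0.73 (Cdc25b) to -0.02, with a median of -0.20 (0.872-fold) against -0.01 over all genes tested, of which 52.3% were below wt. Under quantile normalization 40 were below wt, and Aurkb was at 0.003. Within both replicate numbers 35 were lower, against 35.1% of all genes. For 15 genes both ZnF1-/- libraries lay below both wt libraries, against 12.7% of all genes. Without the block limma called none of the 41 and 0% of all genes (lowest adjusted p among the 41 of 0.52), and none of the 41 and 11.3% of all genes had an unadjusted p under 0.05. With the block 3 of the 41 were called lower, against 2.88% of all genes. They were Cdc25b, Ect2 (-0.38, limma adjusted p 0.033) and Cenpf (-0.35, limma adjusted p 0.048). The calls of Ect2 and Cenpf were lost in each of the 6 fits that left out 1 library, each with 1 residual degree of freedom. The differences in these fits were -0.43 to -0.33 (Ect2) and -0.41 to -0.29 (Cenpf). Macrophage markers summed to 959 and 1090 RPKM in ZnF1-/- against 352 and 406 RPKM in wt, and stromal markers to 220 and 123 RPKM against 50.3 and 60.2 RPKM. B lineage markers summed to 3085 and 2630 RPKM in ZnF1-/- and 2759 and 2054 RPKM in wt, with single markers higher or lower. The mitotic genes summed to 2456 and 2706 RPKM and to 2929 and 3100 RPKM. The part of other cells in the lower values was not tested.

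In ZnF4-/-, 37 of the 41 genes were above wt, with a median difference of 0.18 (1.13-fold) against 0.04 over all genes tested, of which 57% were above wt. The 4 below wt were Cdc25b, Nek2, Ccnb2 and Dlgap5. Within both replicate numbers 36 were higher, against 42.5% of all genes. For 13 genes both ZnF4-/- libraries lay above both wt libraries, against 17.8% of all genes, and for Nek2 both lay below, against 13.8%. Without the block limma called none of the 41 and 2.72% of all genes, and Prc1 alone (2.44%) had an unadjusted p under 0.05 (0.028), against 11.7% of all genes. With the block 3 genes were called higher, against 8.02% of all genes, which is close to that background. They were Prc1, Anln (0.39, limma adjusted p 0.028) and Mad2l1 (0.34, limma adjusted p 0.037). Cdc25b was called lower, against 7.92% of all genes. All 4 calls were lost without either wt library and without either ZnF4-/- library, while the differences in these blocked fits were 0.41 to 0.47 (Prc1), 0.35 to 0.42 (Anln) and 0.30 to 0.38 (Mad2l1). Macrophage markers summed to 393 and 426 RPKM in ZnF4-/-, close to wt, and the mitotic genes to 3224 and 3517 RPKM. This comparison shares the wt libraries with the preceding one.

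**Figure D4:**
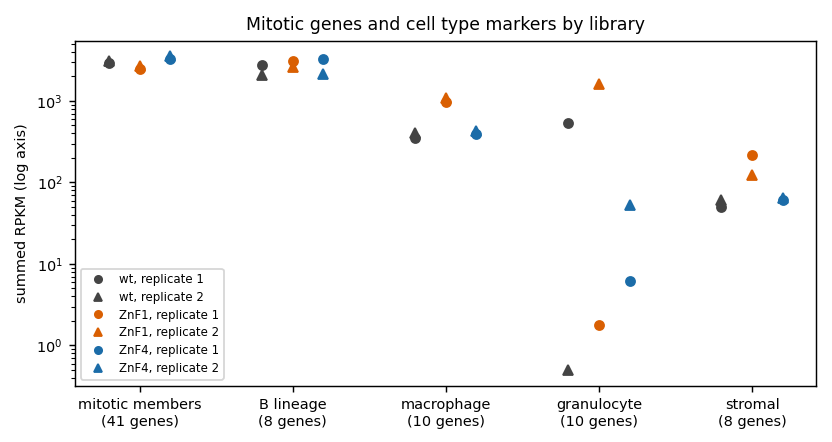
Summed RPKM (log axis) of the mitotic genes and of cell type marker lists, with 1 point for each of the 6 libraries. Macrophage sums are highest in both ZnF1-/- libraries, granulocyte sums in wt replicate 1 and ZnF1-/- replicate 2, and the mitotic sums lie between 2456 and 3517 RPKM.

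A wider list of 109 mitotic genes that were not among the 41 gave similar values. Between the mutants 105 were higher in ZnF4-/- (median 0.37), and with the block limma called 71 higher (65.1%, against 15.9% of all genes) and 1 lower (0.917%, against 19.2%). Without the block none was called, and 20 had an unadjusted p under 0.05 (18.3%, against 19.3% of all genes). The lowest adjusted p belonged to Kntc1, a kinetochore checkpoint protein, at 9.6 and 12.3 RPKM for wt, 8 and 10.7 for ZnF1-/-, and 12.8 and 17.3 for ZnF4-/- (0.63, limma adjusted p 0.0044 with the block). Fbxo5 (EMI1, an inhibitor of the APC/C) and Wee1, a kinase that holds CDK1 inactive, were each higher by 0.56 (limma adjusted p 0.0068 and 0.0082 with the block). The others of the 8 with the lowest p were Ncapg2, a condensin subunit (0.53), Spag5, a spindle protein (0.48), the kinase Pbk (0.63), 6720463M24Rik (0.49) and the kinetochore protein Casc5 (0.47). The 1 gene called lower was E2f8, a repressor of the E2F family, at 54.9 and 42 RPKM for wt, 53.9 and 46.5 for ZnF1-/-, and 44.4 and 34.8 for ZnF4-/- (-0.34, limma adjusted p 0.026 with the block). Against wt, 97 of the 109 were lower in ZnF1-/- (median -0.15, with 2, or 1.83%, called lower with the block, against 2.88% of all genes) and 99 were higher in ZnF4-/- (median 0.20, with 13, or 11.9%, called higher with the block, against 8.02%).

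Regulators of mitotic transcription were among the wider list. Foxm1, an activator of mitotic genes, stood at 55.5 and 38.9 RPKM for wt, 45.4 and 43.2 for ZnF1-/-, and 65 and 45.8 for ZnF4-/-, and was not called between the mutants (0.30, limma adjusted p 0.13 with the block). Mybl2 (B-MYB, which joins the MuvB complex) stood at 21 and 15.6 RPKM for wt, 18.2 and 12.6 for ZnF1-/-, and 21 and 17.4 for ZnF4-/-, and was called higher in ZnF4-/- than in ZnF1-/- with the block (0.32, limma adjusted p 0.043). The MuvB subunits Lin9 (0.39, limma adjusted p 0.017) and Lin54 (0.32, limma adjusted p 0.024) were also called higher with the block.

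Genes of S phase gave similar values. All 36 genes of a DNA replication list were higher in ZnF4-/- than in ZnF1-/-, with a median of 0.36, and with the block limma called 28 of them higher (77.8%, against 15.9% of all genes). Without it none was called, and 8 had an unadjusted p under 0.05 (22.2%, against 19.3% of all genes). Against wt, 35 of the 36 were lower in ZnF1-/- (median -0.13) and all 36 were higher in ZnF4-/- (median 0.27). In ZnF4-/- against wt, 9 of the 36 replication genes (25%) were called higher with the block, and 3 of the 41 mitotic genes (7.32%), against 8.02% of all genes. The difference between the lists was not tested.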

How the data were processed

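The authors deposited RPKM values, to 1 decimal, for each RefSeq transcript in the 6 libraries, per the file headers. TopHat, bedtools and the mouse build mm9 are named, with no versions, per the submitters' processing notes. The sources used here do not say how reads of overlapping genes, near-identical copies or each strand were counted. Rows were summed by symbol (26531 rows, 22099 genes, 1 row without a gene left out, and 39 of 40 symbols that had turned into numbers restored). The 41 genes came from 53 rows, with several rows for 9.

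Differences were tested in limma (version 3.58.1 in R 4.3.3, trend on intensity) on log2(RPKM + 1), which understates changes of low values. The filter was 1 RPKM in 2 libraries. All 6 libraries entered 1 fit of group means, two-sided, with Benjamini-Hochberg adjustment across the 11345 genes and a threshold of 0.05. P-values without the block measure the spread between 2 libraries per group. Those with the block measure the spread that is left once the difference between the replicate numbers is removed. Residual and prior degrees of freedom were 3 and 2.32, or 2 and 3.06 with the replicate block. The titles in the labels number the replicates but do not say what a number shares. Libraries of the same number deviated together from their group means, with correlations over genes of 0.5 (wt, ZnF1-/-), 0.754 (wt, ZnF4-/-) and 0.715 (ZnF1-/-, ZnF4-/-), so the block is given beside the results.

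In 20 simulations of ZnF4-/- against wt over 11345 genes, the fit without the block found 15.2% of genes changed 2-fold and 86.6% of those changed 4-fold, with 5.17% of calls false. With the block these were 96.6%, 99.6% and 8.45%, the last above the nominal share. The data of each fit were simulated from that fit's spread, and the shares do not compare the fits. Changes smaller than 2-fold were not simulated. All differences of the 41 genes in the fits of all 6 libraries were smaller than 2-fold, so the shares do not describe them.

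The 41 genes, the other lists and the settings compared were chosen with earlier results of these data known, so no test was made over a list. Any of the 41 genes could be named. Values per library were given for genes fixed as anchors of each role, for genes called against wt, and for Nek2 and Cks2. The other genes called between the mutants were given by their difference alone, except Kif22, which was only counted. Of the wider list, up to 8 called genes with the lowest p, and Foxm1 and Mybl2, were named. E2f8, Lin9, Lin54, the printed promoters, and the fits that remove a trend on transcript length or combine the block with another setting were chosen after seeing the data. The RPKM values carry 1 decimal, with 0.1 the smallest above 0, and no size of a whole read was derived from them. Promoter coordinates are of GRCm38.p6 and were matched to the files by symbol alone.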

Additional observations from a re-analysis of the deposited data

How the results depend on the processing

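The median difference of the 41 genes kept its sign in each comparison under every alternative run. Values below are for ZnF1-/- against wt, ZnF4-/- against wt and ZnF4-/- against ZnF1-/-, in this order. Leaving out each library in turn gave medians of -0.26 to -0.09, 0.10 to 0.32 and 0.27 to 0.49 without the block, where the replicate difference enters them, and of -0.21 to -0.17, 0.17 to 0.23 and 0.37 to 0.41 with it. Without both granulocyte-rich libraries the medians were -0.28, 0.14 and 0.45. For ZnF1-/- against wt the median was -0.23 with equal RPKM sums and -0.27 with the length trend removed, and for ZnF4-/- against ZnF1-/- it was 0.46 with the length trend removed, with and without the block.

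Without the block limma called none of the 41 in any setting. The replicate block alone called 3, 4 and 32 of the 41 (1502, 1809 and 3979 of all genes). With equal sums it called 4, 5 and 33 (1568, 1858 and 4199), with quantile normalization 3, 5 and 33 (1443, 1760 and 4352), and with the length trend removed 13, 6 and 37 (1781, 1910 and 4705). Leaving out each library in turn with the block gave 0 to 1, 0 to 4 and 1 to 19 of the 41 (0 to 694, 400 to 1764 and 1193 to 2792 of all genes). Without the block it gave 0, 0 to 88 and 0 to 262 of all genes, where all 6 libraries gave 0, 309 and 609. Other counts of all genes without the block were 199 for ZnF1-/- against wt with no filter, 1 with equal sums and 2 with the length trend removed. A filter of 5 RPKM gave 176 (ZnF4-/- against wt) and 323 (ZnF4-/- against ZnF1-/-), the 4 libraries compared alone gave 86 and 234, and leaving out both granulocyte-rich libraries gave 0 and 0. The causes were not tested.

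Without the block, Cenpf in ZnF1-/- against wt ran from -0.82 (without wt replicate 1) to 0.12 (without wt replicate 2), and was 0.10 without ZnF1-/- replicate 1 and -1.27 without both granulocyte-rich libraries. In ZnF4-/- against ZnF1-/-, Hmmr and Smc2 were -0.04 and -0.06 without ZnF4-/- replicate 2 and both 0.72 without ZnF4-/- replicate 1. The depth is unknown, so its limits on low genes such as Ccnb1 cannot be given.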
